A study of Homo sapiens with 6 samples.

Results

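Transcripts of the hypoxia response and of glycolysis were followed in AsPC-1, an established cell line from human pancreatic cancer. The 44 genes were taken by symbol from a chosen list, out of 58735 genes in the deposited table, and 43 of them passed the filter on low counts and were tested. They comprised 4 regulators of the response, 17 targets of the hypoxia-inducible factors (HIF) outside glycolysis, 18 HIF targets within glycolysis and lactate handling, and 5 further glycolytic genes not commonly given as HIF targets. RNA was sequenced from cells carrying an empty lentivirus (Vector, n = 3) and from cells carrying a lentivirus that overexpressed MMP28, a secreted matrix metalloproteinase (OE-MMP28, n = 3). The methods describe stable lines selected with puromycin, with an MMP28 virus that also carried GFP and the resistance gene; the content of the empty virus beyond that name was not given for the overexpression experiment. Neither the labels nor the methods gave a low-oxygen exposure for these libraries. The methods give triplicate samples per group, and say of cell experiments in general that they were repeated independently, but do not say whether the 3 sequenced samples came from separate cultures, so p-values measure the spread between these samples, which may be technical.

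HIF is a pair of proteins. The alpha subunit, encoded by HIF1A or EPAS1, is destroyed when oxygen is present, after prolyl hydroxylases mark it for the VHL ubiquitin ligase. When oxygen falls, the alpha subunit accumulates, joins ARNT and binds a short DNA element in the promoters of genes for glucose uptake, glycolysis, pH control, collagen hydroxylation and mitochondrial turnover. Because this control acts on the protein, transcript levels of the alpha subunits do not report HIF activity. In pancreatic cancer, a poorly perfused tumor, these genes are known for their part in survival at low oxygen.

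The core of the HIF element reads ACGTG or GCGTG, and both were searched on both strands in the 250 bases before 1 transcript start per gene. Promoters came from RefSeq on build GRCh38.p14, and 39 of the 44 genes had an entry. A RefSeq start can lie inside the annotated gene, whose ends are the outermost of all its transcripts, as for all 5 genes shown, and other starts were not searched. For 36 of the 39 the bases after the start lay in a GENCODE transcript of the gene, the exceptions being PFKFB3, PFKP and GAPDH. VHL, NDRG1, BNIP3L, SLC2A3 and SLC16A1 had none. The palindrome CACGTG counts as ACGTG on each strand. CA9 and KDM3A are shown as targets outside glycolysis that fell, ALDOC as a glycolytic target that fell, ENO1 as one that rose, and LDHA as the target with the most ACGTG copies that did not pass the test. Capitals mark the matches, and each sequence runs 5′ to 3′ along the strand of its gene.
CA9, chr9:35673678-35673927, plus strand: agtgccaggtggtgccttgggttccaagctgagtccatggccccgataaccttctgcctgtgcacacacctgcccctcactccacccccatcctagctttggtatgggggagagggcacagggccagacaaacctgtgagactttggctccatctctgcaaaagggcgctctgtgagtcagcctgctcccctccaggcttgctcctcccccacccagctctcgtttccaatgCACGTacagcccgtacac
KDM3A, chr2:86441121-86441370, plus strand: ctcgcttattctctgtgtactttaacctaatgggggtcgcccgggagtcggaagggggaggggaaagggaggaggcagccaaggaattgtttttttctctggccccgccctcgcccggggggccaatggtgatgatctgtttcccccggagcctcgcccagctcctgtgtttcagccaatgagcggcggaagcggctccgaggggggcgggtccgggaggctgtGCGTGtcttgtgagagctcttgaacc
ALDOC, chr17:28576896-28577145, minus strand: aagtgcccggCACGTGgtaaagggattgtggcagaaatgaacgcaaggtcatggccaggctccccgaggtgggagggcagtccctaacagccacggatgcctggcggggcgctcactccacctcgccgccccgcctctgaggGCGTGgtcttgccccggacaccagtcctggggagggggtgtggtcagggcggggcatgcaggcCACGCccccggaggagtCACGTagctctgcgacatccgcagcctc
ENO1, chr1:8878687-8878936, minus strand: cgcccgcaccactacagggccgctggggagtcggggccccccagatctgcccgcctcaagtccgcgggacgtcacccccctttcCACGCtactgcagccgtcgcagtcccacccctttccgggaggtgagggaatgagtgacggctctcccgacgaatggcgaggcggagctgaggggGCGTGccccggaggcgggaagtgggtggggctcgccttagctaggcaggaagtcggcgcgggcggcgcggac
LDHA, chr11:18394313-18394562, plus strand: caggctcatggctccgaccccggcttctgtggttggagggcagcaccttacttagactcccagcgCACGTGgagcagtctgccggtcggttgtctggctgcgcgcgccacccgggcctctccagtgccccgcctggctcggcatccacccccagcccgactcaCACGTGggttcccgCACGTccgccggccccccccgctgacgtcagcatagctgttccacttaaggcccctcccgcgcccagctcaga
In CA9 the match began 18 bases before the RefSeq start, on the opposite strand. In KDM3A a GCGTG began 26 bases before it. ALDOC held 3 ACGTG and 2 GCGTG matches, ENO1 held 2 GCGTG matches, and LDHA held 5 ACGTG matches, of which 2 palindromes account for 4.

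ACGTG was found in 8 of 15 promoters of HIF targets outside glycolysis (53.3%) and in 8 of 17 of those in glycolysis (47.1%), against 18.7% of all 27305 promoters of the same table. GCGTG was found in 5 of the 15 (33.3%) and 7 of the 17 (41.2%), against 31.9% of all. Either core was present in 11 of the 15 (73.3%) and 12 of the 17 (70.6%), against 43.1% of all. The lists were chosen by general knowledge of HIF targets, so these shares describe the lists and do not test them. None of 4 promoters of the other glycolytic genes held either core in this window. Among the genes that fell, 4 of 11 promoters held ACGTG, and among those that rose 0 of 4. Among those tested without a call, 12 of 23 held it. For either core the counts were 7 of 11 (63.6%), 3 of 4 (75.0%) and 15 of 23 (65.2%), in the same order. A match describes letters in a window and says nothing about binding.

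Of 5 ductal epithelial markers, 4 were abundant and KRT7 was low. EPCAM lay between 260 and 328 FPKM (fragments divided by the length of the gene and by the depth of the library), and KRT8, KRT18 and KRT19 between 587 and 1455 FPKM, and KRT7 reached no more than 2.22 FPKM. KRT19 was higher in OE-MMP28 (log2 fold change 0.71, adjusted p = 0.00175), and the other 4 ductal markers were not called. The acinar and endocrine markers PRSS1, CPA1, INS and GCG were at a count of 0 in all 6 libraries, CELA3A had at most 4 counts, and the 5 immune markers stayed at or under 13 counts. Of 7 fibroblast and endothelial markers, LUM alone was abundant, at 33.8 to 56.9 FPKM, and the others stayed at or under 30 counts, with PECAM1 higher in OE-MMP28 (log2 fold change 2.79, adjusted p = 0.00361). Their part in the results was not tested. Libraries held 13633249 to 16691458 counts, and mitochondrial genes took 11.9% to 14.8% of them in Vector and 8.80% to 11.9% in OE-MMP28. MMP28 stood at 5.17, 9.11 and 8.43 FPKM in Vector and at 13.1, 13.9 and 15.1 FPKM in OE-MMP28, without overlap (log2 fold change 0.90, SE 0.19, adjusted p = 0.00226).

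All tests below come from edgeR's quasi-likelihood test across 15319 genes, with Benjamini-Hochberg adjustment over all of them and a call at an adjusted p under 0.05. Fold changes are OE-MMP28 over Vector. Of the 43 tested genes, 14 fell (32.6%) and 4 rose (9.30%), against backgrounds of 11.6% of all genes tested called lower and 11.7% called higher (23.4% in either direction). FPKM did not overlap between the groups for 10 of them in the downward and 6 in the upward direction, against 38.1% of all genes in either. At the study's thresholds, an absolute log2 fold change over 1 with p under 0.05, 5 were lower and 1 was higher, against 5.05% and 3.45% of all genes. The targets outside glycolysis carried most of the fall: 8 of 17 were lower (47.1%) and 1 was higher, with a median log2 fold change of -0.69 beside 0.01 over all genes. The glycolytic targets were divided, with 4 of 18 lower (22.2%) and 2 higher (11.1%) and a median of -0.11. Of the other glycolytic genes, 1 of 4 tested was lower and 0 were higher, with a median of 0.03, and both edgeR and DESeq2 gave 1 gene higher at an unadjusted p under 0.05, SLC16A1. In 15 of the 17 targets outside glycolysis the estimate was below 0, against 7476 of all 15319 genes tested.

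**Figure D1:**
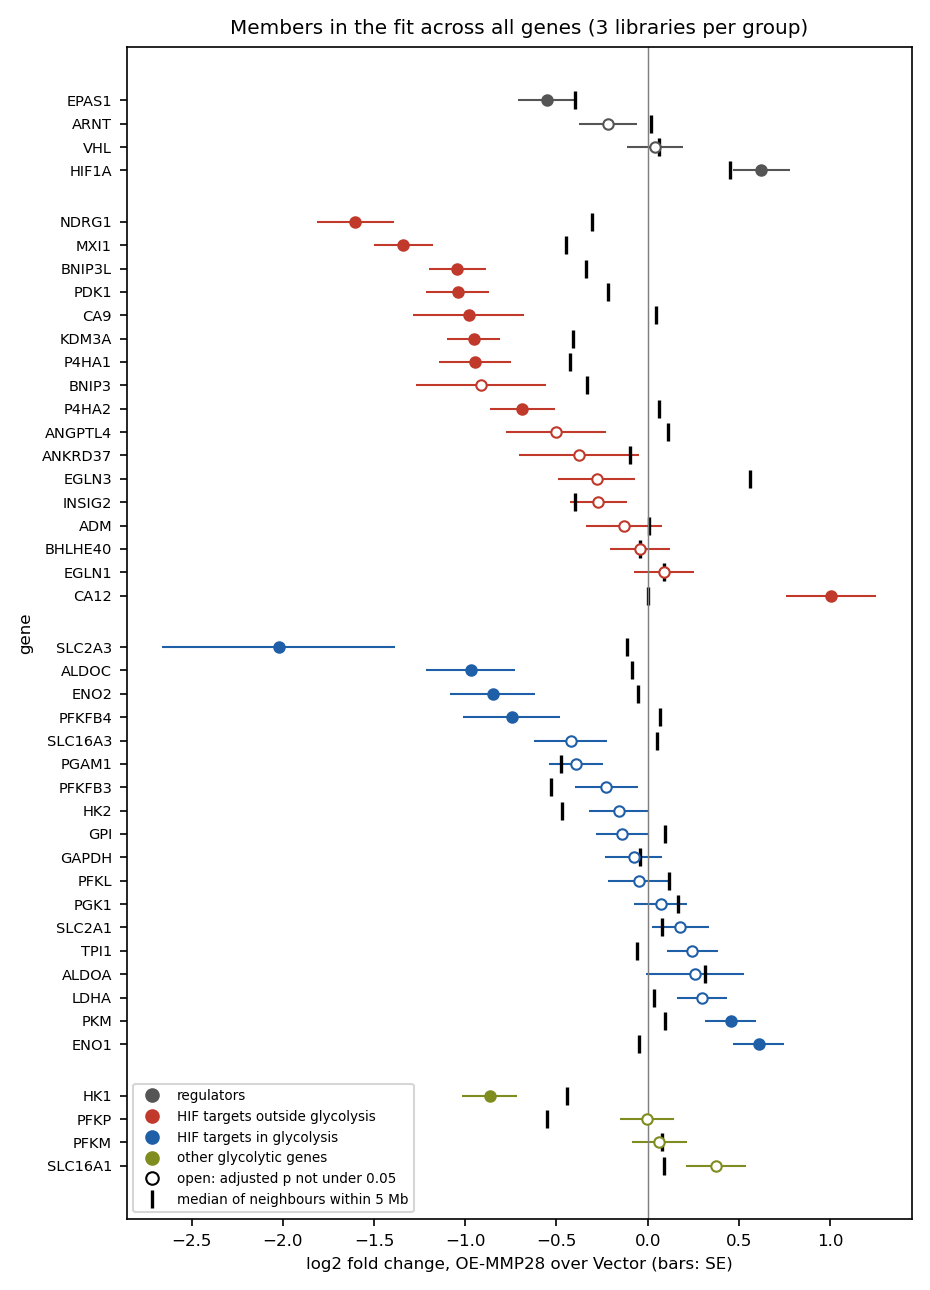
Log2 fold change of OE-MMP28 over Vector on the horizontal axis for the 43 tested genes, with standard errors as bars, filled symbols for an adjusted p under 0.05, and a black tick for the median of the tested genes within 5 Mb on either side. The targets outside glycolysis lie mostly left of 0, with CA12 alone called to the right, and the glycolytic targets run from SLC2A3 at -2.02 to ENO1 at 0.61.

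Neighbouring genes moved together in places, so each gene was also set against its surroundings. The local median is the median log2 fold change of tested genes within 5 Mb on either side. With this median as an offset, 7.42% of all genes were called higher and 8.01% lower. The targets outside glycolysis kept the same number, 8 lower and 1 higher, although P4HA1 dropped out and EGLN3 came in, and their median was -0.58. Of all 43 genes, 12 were then lower and 3 higher.

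The transcripts of the alpha subunits moved in opposite directions. HIF1A (ENSG00000100644, chr14:61695513-61748259), the subunit found in most tissues, had 14.2, 14.2 and 15.1 FPKM in Vector and 26.1, 22.5 and 17.9 FPKM in OE-MMP28. Every OE-MMP28 library was above every Vector library, with OE-MMP28 replicate 3 closest to them. Its log2 fold change was 0.62 (SE 0.16, adjusted p = 0.00683). The genes around HIF1A had a median of 0.45, and against them HIF1A stood at 0.17 (adjusted p = 0.503).

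EPAS1 (ENSG00000116016, chr2:46293667-46386703), which encodes HIF-2 alpha, had 13.4, 11.6 and 11.3 FPKM in Vector and 9.29, 8.30 and 6.94 FPKM in OE-MMP28. The groups did not overlap. Its log2 fold change was -0.55 (SE 0.16, adjusted p = 0.0136), its neighbours had a median of -0.40, and against them it stood at -0.15 (adjusted p = 0.549). The call was lost without Vector replicate 1 (adjusted p = 0.0502), OE-MMP28 replicate 2 (0.0579) or OE-MMP28 replicate 3 (0.0636).

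HIF1A therefore took a larger share of the summed FPKM of both alpha subunits, 73.0% ± 0.833 in OE-MMP28 against 54.6% ± 2.83 in Vector (SD, n = 3). The shares did not overlap. By a two-sided exact permutation test, p was 0.1, which 3 against 3 libraries cannot go below (0.2 after adjustment over 8 families).

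The partner and the ligase adaptor showed no call. ARNT, the beta subunit, had 6.78, 7.93 and 7.39 FPKM in Vector and 7.0, 6.52 and 5.38 FPKM in OE-MMP28, with overlapping groups (log2 fold change -0.22, SE 0.16, adjusted p = 0.351). VHL, the adaptor that recognizes hydroxylated HIF, had 13.3, 11.4 and 12.4 FPKM in Vector and 13.0, 13.5 and 11.4 FPKM in OE-MMP28 (log2 fold change 0.04, SE 0.15, adjusted p = 0.888). The VHL values of the groups lay over the same range.

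Of 11 further genes of the HIF machinery, 9 were tested. By edgeR 2 rose (22.2%) and 0 fell, against 11.7% and 11.6% of all genes tested. DESeq2 gave the same counts, and each tool gave 2 lower at an unadjusted p under 0.05. ELOB, a subunit of the VHL ligase, went from 140, 131 and 128 FPKM in Vector to 192, 240 and 273 FPKM in OE-MMP28 (log2 fold change 0.83, SE 0.16, adjusted p = 0.000755). RBX1, the RING subunit that brings the ubiquitin-conjugating enzyme, went from 18.0, 13.9 and 15.4 to 20.2, 20.1 and 23.9 FPKM (log2 fold change 0.45, SE 0.16, adjusted p = 0.0452). Both were without overlap. ELOB passed in all 19 alternative fits and RBX1 in 7, its call being lost without Vector replicate 2 (adjusted p = 0.147), Vector replicate 3 (0.152), OE-MMP28 replicate 2 (0.112) or OE-MMP28 replicate 3 (0.149). HIF3A and ARNT2 never exceeded 3 counts per library and went untested.

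**Figure D2:**
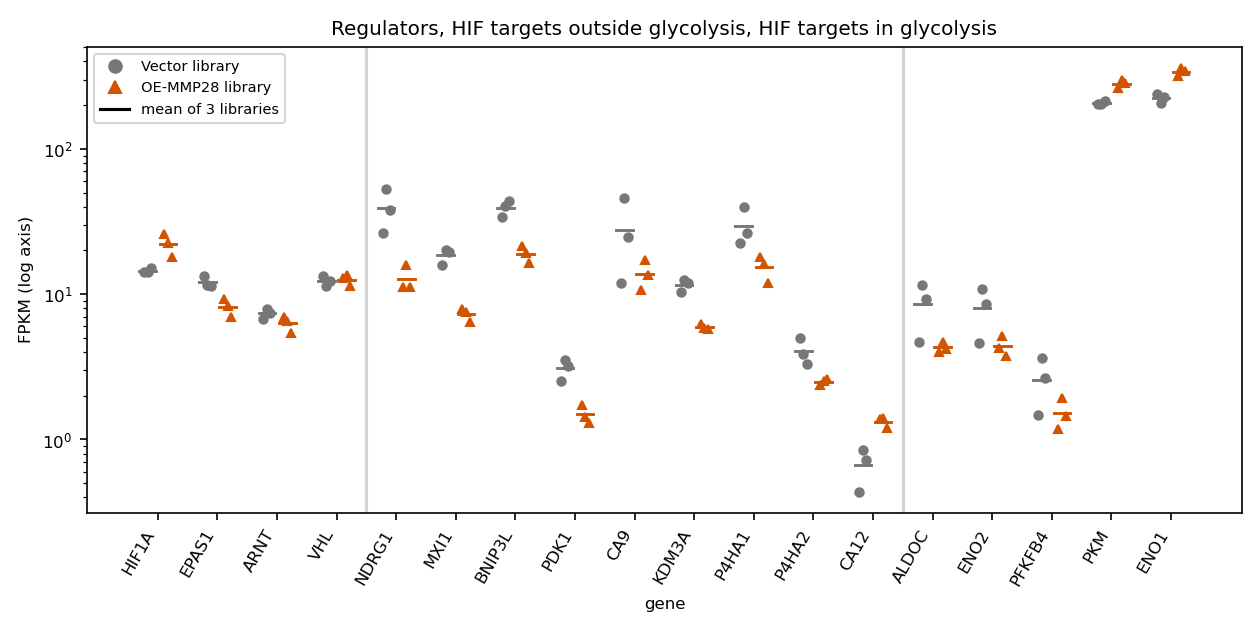
FPKM on a log axis in each of the 3 Vector libraries (circles) and 3 OE-MMP28 libraries (triangles), with group means as lines, for the regulators, the called HIF targets outside glycolysis and the called HIF targets in glycolysis above 1 FPKM. NDRG1 shows the largest fall in group mean among the targets outside glycolysis, and the 2 glycolytic genes that rose, PKM and ENO1, lie at 203 FPKM or more, above all others drawn.

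Among targets outside glycolysis, NDRG1 fell most. NDRG1 (ENSG00000104419, chromosome 8), a stress-response gene long used as a hypoxia marker, had 26.2, 53.3 and 37.8 FPKM in Vector and 11.3, 15.8 and 11.2 FPKM in OE-MMP28. Vector replicate 1 was the lowest control and still stood above all OE-MMP28 libraries. It had a log2 fold change of -1.60 (SE 0.21, adjusted p = 1.89e-05), a level 3.04 times higher in Vector, and it was -1.30 against its neighbours.

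MXI1 (ENSG00000119950, chr10:110207605-110287365), an antagonist of MYC, had 15.9, 20.3 and 19.6 FPKM in Vector and 7.91, 7.52 and 6.45 FPKM in OE-MMP28. The groups were far apart, with a log2 fold change of -1.34 (SE 0.16, adjusted p = 7.28e-06). Against its neighbours MXI1 stood at -0.89 (adjusted p = 0.00071). BNIP3L (ENSG00000104765, chromosome 8), a receptor for mitophagy, had 33.9, 40.7 and 43.8 FPKM in Vector and 21.3, 19.3 and 16.5 FPKM in OE-MMP28. It also separated the groups without overlap (log2 fold change -1.04, SE 0.16, adjusted p = 8.29e-05). Against its neighbours BNIP3L stood at -0.70 (adjusted p = 0.00398). PNMA2, on the opposite strand, shares 7.66% of the BNIP3L exon length and fell from 957 to 1277 counts in Vector to 369 to 453 counts in OE-MMP28; whether the counting used strand was not given in the sources used here.

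PDK1 (ENSG00000152256, chr2:172555373-172608669), the kinase that keeps pyruvate out of the mitochondrial acetyl-CoA route, had 2.53, 3.51 and 3.22 FPKM in Vector and 1.73, 1.44 and 1.30 FPKM in OE-MMP28. All OE-MMP28 libraries were lower (log2 fold change -1.04, SE 0.18, adjusted p = 0.000279). Against its neighbours PDK1 stood at -0.83 (adjusted p = 0.00291). KDM3A (ENSG00000115548, chr2:86440647-86492716), a histone H3K9 demethylase, had 10.4, 12.5 and 11.9 FPKM in Vector and 6.22, 5.86 and 5.72 FPKM in OE-MMP28. The OE-MMP28 libraries lay close together, below all Vector libraries, with a log2 fold change of -0.95 (SE 0.15, adjusted p = 0.000107) and of -0.54 against a local median of -0.41 (adjusted p = 0.0146).

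Both catalytic subunits of collagen prolyl 4-hydroxylase in the list fell. P4HA1 (ENSG00000122884, chr10:73007217-73096974) had 22.5, 39.8 and 26.5 FPKM in Vector and 17.9, 16.0 and 11.9 FPKM in OE-MMP28 (log2 fold change -0.94, SE 0.20, adjusted p = 0.00184). P4HA2 (ENSG00000072682, chr5:132191838-132295315) had 4.97, 3.86 and 3.33 FPKM in Vector and 2.37, 2.53 and 2.59 FPKM in OE-MMP28 (log2 fold change -0.69, SE 0.18, adjusted p = 0.00780). Neither gene overlapped between groups. Their surroundings differed: the local median was -0.42 at P4HA1, which then stood at -0.52 (adjusted p = 0.0779), and 0.06 at P4HA2, which stood at -0.75 (adjusted p = 0.00651).

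The carbonic anhydrases, which act on pH at the cell surface, went in opposite directions. CA9 (ENSG00000107159, chr9:35673856-35681159) had 12, 45.9 and 24.6 FPKM in Vector and 10.6, 17.1 and 13.6 FPKM in OE-MMP28. Vector replicate 1 lay within the range of OE-MMP28 and Vector replicate 2 was far above all others. The log2 fold change was -0.98 (SE 0.30, adjusted p = 0.0239), and the call was lost without Vector replicate 2 (log2 fold change -0.40, adjusted p = 0.240), OE-MMP28 replicate 1 (adjusted p = 0.127) or OE-MMP28 replicate 3 (adjusted p = 0.0960). DESeq2 gave an adjusted p of 0.185. ARHGEF39, on the opposite strand, shares 38.5% of the exon length of CA9 and had 388 to 694 counts per library, so CA9 is uncertain where reads were not assigned by strand.

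CA12 (ENSG00000074410, chr15:63321378-63382161) had 0.438, 0.840 and 0.724 FPKM in Vector and 1.37, 1.41 and 1.19 FPKM in OE-MMP28. All OE-MMP28 libraries were higher, at a level well below that of CA9. Its log2 fold change was 1.01 (SE 0.25, adjusted p = 0.00581), on 49 to 164 counts per library, and its neighbours had a median of 0.00. The call was lost with limma on log2(FPKM + 1) (adjusted p = 0.0705) and on log2(FPKM + 0.1) (adjusted p = 0.0783).

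The other 8 targets outside glycolysis were not called. BNIP3, the mitophagy receptor related to BNIP3L, had 0.590, 0.542 and 0.930 FPKM in Vector and 0.273, 0.237 and 0.569 FPKM in OE-MMP28 (log2 fold change -0.91, SE 0.36, adjusted p = 0.0699). Its groups overlapped, and with the replicate number as a block its adjusted p was 0.0292. It is uncertain, because annotated BNIP3 pseudogenes took 34.6% to 58.9% of the summed counts of gene and pseudogenes. ANGPTL4, a secreted inhibitor of lipoprotein lipase (log2 fold change -0.50, adjusted p = 0.194), and ANKRD37 (-0.38, adjusted p = 0.445) had overlapping groups, and UFSP2 on the opposite strand shares 35.2% of the ANKRD37 exon length.

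EGLN1 and EGLN3 encode prolyl hydroxylases that mark HIF for destruction. EGLN1 stood at a log2 fold change of 0.09 (adjusted p = 0.738) and EGLN3 at -0.28 (adjusted p = 0.366), both with overlapping groups. The neighbours of EGLN3 had a median of 0.56, and against them EGLN3 was lower by 0.84 (adjusted p = 0.0105). Log2 fold changes of INSIG2, which restrains sterol synthesis, ADM, which encodes the vasodilator adrenomedullin, and BHLHE40, a transcriptional repressor, were -0.27, -0.13 and -0.04, with adjusted p-values of 0.218, 0.700 and 0.885.

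Median deviation from the Vector mean over the 17 targets outside glycolysis, on the log2 CPM scale, stood at -0.26, 0.21 and 0.05 for the Vector libraries (replicates 1, 2 and 3), while the OE-MMP28 libraries stood at -0.77, -0.45 and -0.48. The Vector libraries were spread, with replicate 1 lowest and replicate 2 highest. Vector replicate 1 was the lowest Vector library for 25 of the 35 HIF targets and Vector replicate 2 the highest for 27. All 5 genes that were called lower while their FPKM overlapped did so through Vector replicate 1 alone. Over the 17 targets the median log2 fold change was -0.40 without Vector replicate 2 and -0.78 without Vector replicate 1.

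**Figure D3:**
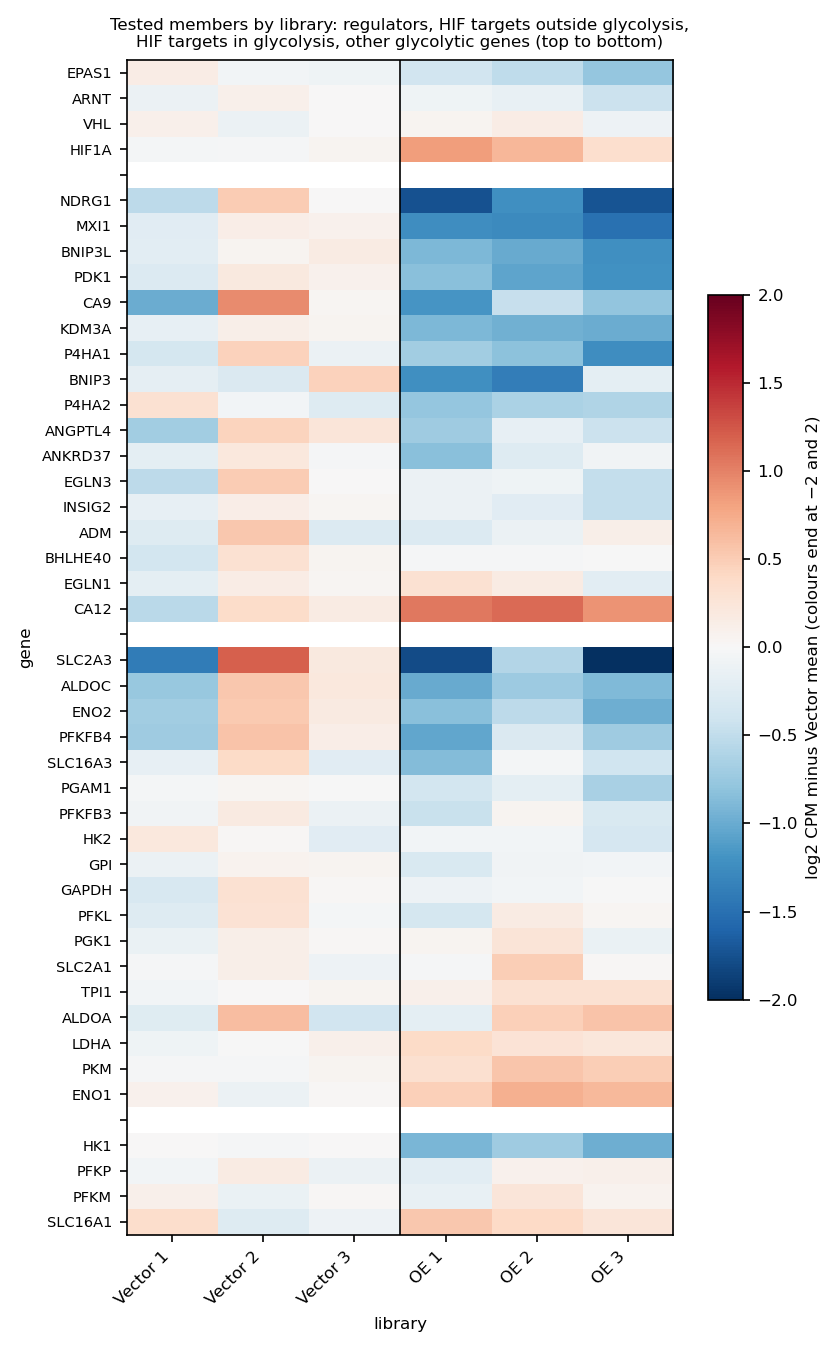
Log2 CPM of each tested gene (rows) in the 6 libraries (columns) minus the Vector mean of that gene, with colours ending at -2 and 2. The targets outside glycolysis are blue across OE-MMP28 from NDRG1 down to P4HA2, palest for BNIP3 in replicate 3. For these targets the mostly blue column of Vector replicate 1 beside the mostly red one of replicate 2 shows the spread among the controls.

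A list of 16 other HIF targets was set beside these. Of 14 tested, 5 fell (35.7%) and 1 rose (7.14%), against 11.6% and 11.7% of all genes tested. Their median log2 fold change was -0.41. VEGFA, the angiogenic growth factor, went from 6.42, 8.12 and 7.86 FPKM in Vector to 4.50, 5.22 and 4.58 FPKM in OE-MMP28 (log2 fold change -0.64, SE 0.15, adjusted p = 0.00532). Every OE-MMP28 library was below every Vector library.

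TXNIP, which restrains glucose uptake (log2 fold change -0.94, adjusted p = 0.000387), DDIT4, an inhibitor of mTORC1 (-1.05, adjusted p = 0.00408), and WSB1 (-0.56, adjusted p = 0.0136) also fell without overlap. WSB1 was no longer called without Vector replicate 3 (adjusted p = 0.0732) or OE-MMP28 replicate 2 (adjusted p = 0.0896). Its call was also lost with limma on log2(FPKM + 1) (adjusted p = 0.0605) and on log2(FPKM + 0.1) (adjusted p = 0.0614). DDIT4 stood at -0.62 against its neighbours (adjusted p = 0.0946). AK4, a mitochondrial adenylate kinase, rose from 6.02 ± 0.328 to 9.92 ± 1.48 FPKM (SD, n = 3, log2 fold change 0.73, adjusted p = 0.00221).

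Of the 18 glycolytic targets, 2 were called higher (11.1%) and 4 lower (22.2%), against 11.7% and 11.6% of all genes tested. The 2 called higher were abundant and the 4 called lower were at low levels. PGAM1, also abundant, had a log2 fold change of -0.39 without being called. ENO1 (ENSG00000074800, chr1:8861000-8879250), the enolase of most tissues, had 239, 207 and 228 FPKM in Vector and 316, 360 and 344 FPKM in OE-MMP28. All OE-MMP28 libraries were higher (log2 fold change 0.61, SE 0.14, adjusted p = 0.00382), and the local median was -0.05. PKM (ENSG00000067225, chr15:72199029-72231822), the pyruvate kinase outside liver and red cells, had 205, 203 and 214 FPKM in Vector and 261, 299 and 286 FPKM in OE-MMP28. It also did not overlap, with a log2 fold change of 0.45 (SE 0.14, adjusted p = 0.0213). The PKM call was lost without Vector replicate 3 (adjusted p = 0.0643), OE-MMP28 replicate 2 (0.109) or OE-MMP28 replicate 3 (0.0508), and against its neighbours PKM stood at 0.36 (adjusted p = 0.0829).

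SLC2A3 (ENSG00000059804, chr12:7919230-7936275), the high-affinity glucose transporter GLUT3, had counts of 7, 46 and 24 in Vector and 5, 14 and 2 in OE-MMP28, or 0.0743, 0.553 and 0.264 against 0.0513, 0.143 and 0.0193 FPKM. The groups overlapped through Vector replicate 1, and the last count lies under the limit of 3 that a count of 0 allows. The log2 fold change was -2.02 (SE 0.64, adjusted p = 0.0259) and the call was lost without Vector replicate 2 (log2 fold change -1.23, adjusted p = 0.196), OE-MMP28 replicate 1 (adjusted p = 0.110) or OE-MMP28 replicate 3 (log2 fold change -1.57, adjusted p = 0.141). Without OE-MMP28 replicate 2 the log2 fold change was -3.04. Annotated SLC2A3 pseudogenes took up to 71.4% of the summed counts in a library, so the gene is uncertain.

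ALDOC (ENSG00000109107, chr17:28573115-28577264), the aldolase known from brain, had 4.69, 11.6 and 9.25 FPKM in Vector and 4.00, 4.72 and 4.22 FPKM in OE-MMP28. Vector replicate 1 lay among the OE-MMP28 libraries, and the other two Vector libraries were above them. ALDOC had a log2 fold change of -0.97 (SE 0.24, adjusted p = 0.00674) and passed without each library in turn. ENO2 (ENSG00000111674, chr12:6913745-6923698), the enolase known from neurons, had 4.64, 10.9 and 8.53 FPKM in Vector and 4.28, 5.17 and 3.78 FPKM in OE-MMP28. It showed the same arrangement, with a log2 fold change of -0.85 (SE 0.23, adjusted p = 0.0118), lost without Vector replicate 2 (log2 fold change -0.57, adjusted p = 0.0613) or OE-MMP28 replicate 3 (adjusted p = 0.0734).

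PFKFB4 (ENSG00000114268, chr3:48517684-48562015) makes and removes fructose 2,6-bisphosphate, the activator of phosphofructokinase. It had 1.47, 3.61 and 2.64 FPKM in Vector and 1.18, 1.93 and 1.44 FPKM in OE-MMP28. Vector replicate 1 again lay within OE-MMP28. The log2 fold change was -0.75 (SE 0.26, adjusted p = 0.0465). That call was lost without Vector replicate 2 (log2 fold change -0.43, adjusted p = 0.248), Vector replicate 3 (adjusted p = 0.0834), OE-MMP28 replicate 1 (adjusted p = 0.166) or OE-MMP28 replicate 3 (adjusted p = 0.141).

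The count of glycolytic targets called lower therefore went from 4 to 1 without Vector replicate 2, to 2 without OE-MMP28 replicate 1 and to 1 without OE-MMP28 replicate 3. It was 5 with DESeq2. With limma on log2(FPKM + 1) and on log2(FPKM + 0.1), 0 of the 18 were called lower and 3 were lower at an unadjusted p under 0.05, while 965 and 970 of all genes tested there were called lower.

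The remaining 12 glycolytic targets were not called. LDHA, which makes lactate, had 346, 364 and 394 FPKM in Vector and 486, 438 and 424 FPKM in OE-MMP28, without overlap, yet it was not called (log2 fold change 0.30, SE 0.14, adjusted p = 0.125). TPI1, triose phosphate isomerase, was also without overlap, with 163 ± 6.11 FPKM in Vector and 191 ± 12.5 FPKM in OE-MMP28 (SD, n = 3, log2 fold change 0.24, adjusted p = 0.218). PGAM1, phosphoglycerate mutase, had 123 ± 2.99 and 92.9 ± 14.9 FPKM (log2 fold change -0.39, adjusted p = 0.0623); its neighbours had a median of -0.48, and against them it stood at 0.09. It was called lower in 6 of 19 alternative fits, among them DESeq2 (adjusted p = 0.0356) and upper-quartile scaling (adjusted p = 0.0327). FPKM did not overlap for 4 of the 18 in the upward and 1 in the downward direction, against 19% and 19.1% of all genes tested.

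GAPDH, often used as a reference gene, had 516, 792 and 648 FPKM in Vector and 606, 608 and 624 FPKM in OE-MMP28 (log2 fold change -0.08, SE 0.16, adjusted p = 0.761). The Vector libraries of GAPDH spanned the OE-MMP28 libraries. PGK1, which makes ATP from 1,3-bisphosphoglycerate, stood at 0.07 (adjusted p = 0.772), SLC2A1, the transporter GLUT1, at 0.18 (adjusted p = 0.446), GPI, the phosphoglucose isomerase, at -0.14 (adjusted p = 0.516) and PFKL, the liver-type phosphofructokinase, at -0.05 (adjusted p = 0.864) on the log2 fold change scale. PFKFB3, the relative of PFKFB4, was at -0.23 (adjusted p = 0.367), and SLC16A3, the lactate exporter MCT4, at -0.42 (adjusted p = 0.135). All 6 had overlapping groups.

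ALDOA, the aldolase of most tissues, was listed at only 85 to 189 counts, 1.47 to 3.02 FPKM (log2 fold change 0.26, adjusted p = 0.522). It is uncertain: AC093512.2, annotated on the same strand, shares 42.3% of its exon length and had 154 counts over all libraries, and how reads matching both were counted was not given in the sources used here.

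Among glycolytic genes not commonly given as HIF targets, HK1 (ENSG00000156515, chr10:69269984-69401884), the hexokinase of most tissues, fell. It had 11.4, 11.2 and 11.4 FPKM in Vector and 6.09, 6.78 and 5.65 FPKM in OE-MMP28. The Vector libraries were nearly equal and all above OE-MMP28 (log2 fold change -0.87, SE 0.15, adjusted p = 0.000434). Its neighbours had a median of -0.45, and against them HK1 stood at -0.42 (adjusted p = 0.0644).

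PFKP, the platelet-type phosphofructokinase, had 76.7, 88.8 and 72.9 FPKM in Vector and 69.2, 83.0 and 83.3 FPKM in OE-MMP28. Those values overlapped, with a log2 fold change of -0.00 (SE 0.15, adjusted p = 0.987). PFKP lies among genes with a median of -0.55, and against them it was higher by 0.55 (adjusted p = 0.0154). PFKM, the muscle type, stood at 0.06 (adjusted p = 0.806), and SLC16A1, the transporter MCT1, at 0.37 (adjusted p = 0.111).

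LDHB, the lactate dehydrogenase subunit that favors pyruvate, had a count of 0 in all 6 libraries and was not tested. A count of 0 allows up to 0.180 to 0.220 CPM at these depths, for counting error only. AC010197.2 on the same strand shares 33.4% of its exon length and was at 0 as well, and the handling of reads matching both was not tested.

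A larger list of 34 glycolytic, pyruvate and pentose phosphate genes was used for comparison. Of 25 tested, 2 rose (8%) and 1 fell (4%), against 11.7% and 11.6% of all genes tested. Their median log2 fold change was 0.16. FBP1, the gluconeogenic enzyme that opposes phosphofructokinase, had 49.7, 51.7 and 50 FPKM in Vector and 96.6, 98.2 and 96.8 FPKM in OE-MMP28. Replicates of FBP1 were nearly equal within each group (log2 fold change 0.96, SE 0.14, adjusted p = 7.22e-05). PDK4, like PDK1 an inhibitor of pyruvate dehydrogenase, fell from 16.2 ± 4.02 to 7.34 ± 1.03 FPKM (SD, n = 3, log2 fold change -1.13, adjusted p = 0.000184). DLAT, a subunit of that complex, rose (log2 fold change 0.63, adjusted p = 0.00802) beside a local median of 0.50. Against that median DLAT stood at 0.14 (adjusted p = 0.622). The DLAT call was also lost with limma on log2(FPKM + 1) (adjusted p = 0.0515) and on log2(FPKM + 0.1) (adjusted p = 0.0523).

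Within isoenzyme families, shares of the summed FPKM were compared, which cancels library scaling. HK2, the HIF-inducible hexokinase, took 45.5%, 42.9% and 38.2% of HK1 and HK2 together in Vector and 56.9%, 53.6% and 53.2% in OE-MMP28. These shares did not overlap, while the level of HK2 itself was 8.35 ± 1.26 FPKM in Vector and 7.42 ± 0.866 FPKM in OE-MMP28 (log2 fold change -0.16, adjusted p = 0.524). HKDC1, a further hexokinase outside this family sum, was more abundant than both, at 31.6 to 40.1 FPKM, with a log2 fold change of 0.01 (adjusted p = 0.967).

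ENO2 made up 1.90%, 5.01% and 3.60% of enolase FPKM in Vector and 1.34%, 1.42% and 1.09% in OE-MMP28, so every OE-MMP28 share was lower. ALDOC made up 79.9% ± 6.17 of ALDOA and ALDOC in Vector and 64.4% ± 5.27 in OE-MMP28 (SD, n = 3), without overlap and subject to the doubt about ALDOA. For HK2, ENO2 and ALDOC the two-sided exact permutation p was 0.1, the smallest possible, and 0.2 after adjustment over the families. PFKP took 72.1% ± 1.24 and 72.1% ± 1.24 of the phosphofructokinases (exact p = 0.9). The shares of SLC16A3 (33.4% against 22.1%, exact p = 0.2), PFKFB4 (27.6% against 21.4%, exact p = 0.4) and SLC2A1 (99.6% against 99.9%, exact p = 0.2) overlapped between groups.

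**Figure D4:**
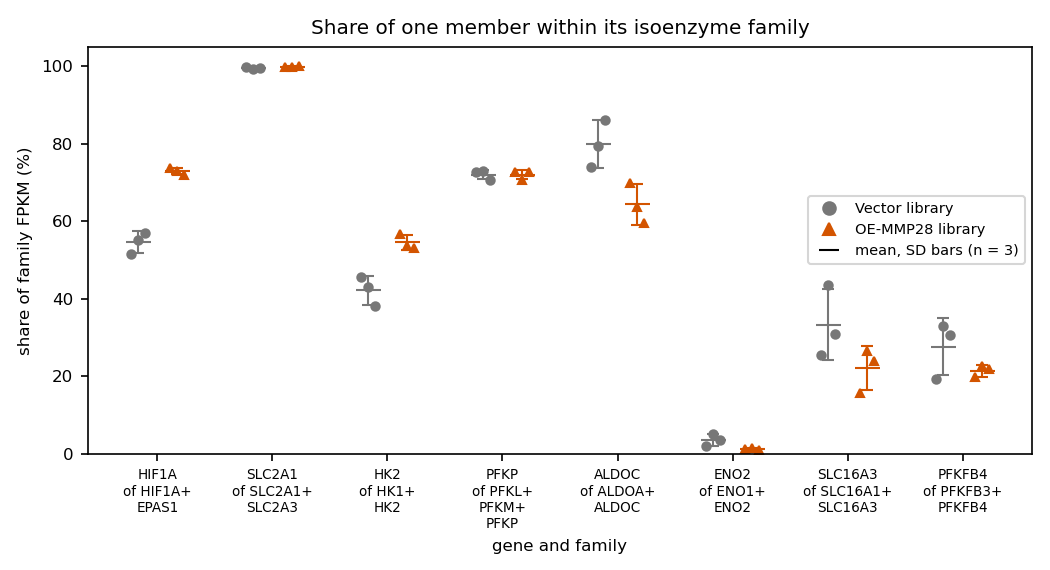
Share of 1 gene in the summed FPKM of its isoenzyme family, in percent, in each Vector library (circles) and OE-MMP28 library (triangles), with mean and SD (n = 3). HIF1A and HK2 lie higher in all OE-MMP28 libraries, ALDOC and ENO2 lower, and PFKP at 72.1% in both groups.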

How the data were processed

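The authors deposited 1 table with the read counts of each gene as whole numbers, neither normalized nor pooled, and FPKM. The submitters' processing notes name HISAT2 2.0.5 and featureCounts 1.5.0-p3. The genome build, strand setting and handling of reads with several matches were not given in the sources used here, which leaves overlapping genes and pseudogenes uncertain. Coordinates of 58724 of 58735 genes were those of GENCODE release 29 on GRCh38. Recomputed from counts and gene lengths, FPKM had a single factor per library. Columns of the authors' own comparison (group means, log2 fold changes, p-values) were not used. Per-sample columns left unmapped numbered 0.

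The members and lists were chosen with earlier results of these data known, by general knowledge of HIF targets, and the named genes were all members with called genes of the other lists. Groups and replicate numbers came from the labels. Counts were tested with edgeR 4.0.16 (quasi-likelihood, R 4.3.3), a minimum count of 10 and total of 15, TMM scaling and the group alone, adjusted by Benjamini-Hochberg over 15319 genes, and scripts were tested on simulated data. The study's methods name limma. FPKM shares were tested by two-sided exact permutation. Alternatives comprised 19 fits with other filters, scalings, tools (DESeq2 1.42.0, limma 3.58.1 with voom or log2(FPKM + 1 or 0.1)), a replicate block, left-out libraries, restricted genes and a local-median offset (5 Mb, at least 10 neighbours). Scaling by library totals without mitochondrial genes was added after the data were seen. Library totals of 13633249 to 16691458 put the floor of 3 counts at 0.180 to 0.220 CPM. No libraries were duplicates, since chi-square per degree of freedom was at least 15.6 between replicates. A called gene of the list of other HIF targets is counted but not reported singly here.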

Additional observations from a re-analysis of the deposited data

How the results depend on the processing

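The log2 fold change of MMP28 kept its sign and its call in all 19 alternative fits. Among the members, NDRG1, BNIP3L, PDK1, KDM3A, MXI1 and ENO1 also passed in all 19. Of the genes named from the other lists, ELOB, VEGFA, TXNIP, AK4, FBP1, PDK4 and KRT19 did so too. For single members, 735 of the values under alternatives kept sign and side of the threshold, 38 were no longer past it, 14 newly passed it and 27 changed sign. The median over all genes moved by less than 0.1 on the log2 scale under every scaling. Low counts limit SLC2A3, BNIP3 and ANKRD37, which stayed at or under 73 counts per library, and the spread among the Vector libraries limits CA9, ALDOC, ENO2 and PFKFB4.

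Genes called higher numbered 1795, against 1009 with limma on log2(FPKM + 1), 1000 with log2(FPKM + 0.1), 1136 with the local-median offset, 528 under the study's thresholds (with their p read as unadjusted) and 985 to 1916 when 1 library was left out. Genes called lower numbered 1784, against 965, 970, 1227, 774 and 1044 to 1949. The lowest of both came without OE-MMP28 replicate 2, and without Vector replicate 3 those called higher numbered 1136. Upper-quartile scaling gave 1541 higher and 2016 lower, and library totals without mitochondrial genes gave 1459 and 2164. Under the study's thresholds 1 member was higher and 5 lower, of which 4 were targets outside glycolysis. With limma on FPKM 8 members were lower at a pseudocount of 1 and 9 at 0.1: CA9, CA12, SLC2A3, PFKFB4, ALDOC and ENO2 lost their calls at both, and P4HA2 at 1.

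Of the glycolytic targets, 5 were lower with DESeq2, upper-quartile scaling, the fit without mitochondrial genes, protein-coding genes only and library totals without mitochondrial genes, 2 with limma voom, 0 with limma on FPKM at either pseudocount, 1 under the study's thresholds and 1 to 4 with a library left out. Those higher numbered 1 with the local-median offset, 0 under the study's thresholds and 1 to 2 with a library left out. The median log2 fold change of the targets outside glycolysis was -0.34 with limma on log2(FPKM + 1) and -0.78 to -0.40 with a library left out. That of the other glycolytic genes was 0.22 with HK1 and PFKP counted as HIF targets. The cause was not tested for any of these.

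Signs turned for members that were not called. Set against the local median, log2 fold changes were -0.021 for VHL, 0.31 for PFKFB3, 0.13 for INSIG2, 0.31 for HK2, -0.015 for PFKM, 0.55 for PFKP, -0.052 for ALDOA, -0.094 for PGK1 and 0.085 for PGAM1. VHL was at -0.0094 with upper-quartile scaling and -0.030 with library totals without mitochondrial genes, where PFKM was at -0.0058. With a library left out the ranges were -0.029 to 0.11 for VHL, -0.27 to 0.19 for ADM, -0.047 to 0.23 for EGLN1, -0.50 to 0.0091 for EGLN3, -0.015 to 0.25 for SLC2A1, -0.20 to 0.12 for BHLHE40, -0.17 to 0.11 for PFKL, -0.043 to 0.14 for PFKM, -0.062 to 0.081 for PFKP, -0.22 to 0.084 for GAPDH and -0.044 to 0.17 for PGK1. The difference in the share of PFKP ranged from -0.69 to 0.74 percentage points.

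Same-numbered libraries did not deviate together, with correlations of 0.017, 0.0080 and -0.088. With so few libraries per group, these values cannot decide whether the numbers pair the samples. With the replicate block 19 members were called, BNIP3 was gained and none of the 18 was lost.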
